A study of Mus musculus with 9 samples.

Results

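The nuclear genes for the proteins of the mitochondrial ribosome were followed through angiotensin II (Ang II) infusion in the mouse aorta. Members were the rows of the 9 count files whose Entrez Gene ID maps to a symbol beginning with Mrpl or Mrps followed by a number. There were 78 of them among 18830 genes, 49 named Mrpl for the large subunit and 29 named Mrps for the small subunit. All 78 passed the filter on low counts, and the lowest count of any member in any library was 145 reads. The genes lay on 17 chromosomes, 11 of them on chromosome 11.

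The libraries were made from suprarenal abdominal aortas of mice labelled ApoE knock out, a hyperlipidaemic strain, and every group carried this genotype. The 3 groups of 3 libraries were labelled sham control (saline, by the series' design text), Ang II-induced 14D and Ang II-induced 28D. Ang II was given at 1000 ng/kg/min by osmotic pump, and the groups are called sham, 14 days and 28 days here. The tissue label is aorta, although sample titles begin with Muscle. The day of the sham harvest, age and sex of the mice were not given in the sources used here, and neither was whether a library was 1 mouse, so p-values measure the spread between these libraries, which may be technical.

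The mitochondrial ribosome translates the few messages of the mitochondrial genome, all of which encode subunits of the respiratory chain and ATP synthase. Its RNAs come from mitochondrial DNA, whereas its proteins are encoded in the nucleus, made in the cytosol and imported. Aortic tissue holds smooth muscle cells, fibroblasts, endothelium and the fat around the vessel, and these differ widely in how many mitochondria they carry. The count files held 0 genes of the mitochondrial chromosome, so the ribosomal RNAs and the messages this ribosome translates were not analysed here.

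The libraries had 9609690 to 14923936 expected counts. Smooth muscle markers were read in all of them, with 0 of 8 at a count of 0, and summed to 9530 to 28700 CPM (counts brought to a common library total by TMM factors) in sham, 3600 to 16600 at 14 days and 2050 to 6990 at 28 days. Several libraries of 1 group differed in markers of other cell types. Nerve and Schwann cell markers summed to 7780 CPM in sham replicate 2, 3230 in 14-day replicate 1 and 3460 in 28-day replicate 2, against 29.2 to 1760 in the others. Skeletal muscle markers reached 19700 and 6690 CPM in 28-day replicates 1 and 2 and 14.3 to 177 elsewhere, and macrophage markers 16000 CPM in 14-day replicate 2 and 424 to 4430 elsewhere. The 4 of 7 cardiac muscle markers that passed the filter on low counts summed to 728 CPM in sham replicate 1 and to 4.75 to 54.4 elsewhere. Cardiac markers that did not pass are not in these sums.

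Promoters of 5 members are shown as examples. Mrps36 and Mrpl34 had the lowest log2 fold changes at 14 days and Mrpl52 the highest. Mrpl12 was the most abundant Mrpl gene, and Mrps27 had the lowest value at 28 days after Mrps36. Sequences are from RefSeq on GRCm38.p6, from 250 bases before to 50 after the start, read 5′ to 3′ on the gene's strand, and capitals mark the letters searched. The positions are chr11:120484387-120484686 for Mrpl12, chr8:71464676-71464975 for Mrpl34, chr13:99344536-99344835 for Mrps27 and chr14:54426659-54426958 for Mrpl52, all on the plus strand, and chr13:100744610-100744909 on the minus strand for Mrps36.
Mrpl12: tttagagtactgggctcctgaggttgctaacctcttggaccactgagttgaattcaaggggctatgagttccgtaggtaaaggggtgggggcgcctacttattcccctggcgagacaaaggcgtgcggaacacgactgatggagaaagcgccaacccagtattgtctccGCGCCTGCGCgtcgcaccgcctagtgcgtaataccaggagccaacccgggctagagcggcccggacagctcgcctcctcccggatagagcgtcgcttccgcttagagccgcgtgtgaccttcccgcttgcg
Mrpl34: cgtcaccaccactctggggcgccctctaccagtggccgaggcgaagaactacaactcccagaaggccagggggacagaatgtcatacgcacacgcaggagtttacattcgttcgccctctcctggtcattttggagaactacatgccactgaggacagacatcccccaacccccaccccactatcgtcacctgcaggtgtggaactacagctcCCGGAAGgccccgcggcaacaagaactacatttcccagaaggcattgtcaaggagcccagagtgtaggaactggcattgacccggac
Mrps27: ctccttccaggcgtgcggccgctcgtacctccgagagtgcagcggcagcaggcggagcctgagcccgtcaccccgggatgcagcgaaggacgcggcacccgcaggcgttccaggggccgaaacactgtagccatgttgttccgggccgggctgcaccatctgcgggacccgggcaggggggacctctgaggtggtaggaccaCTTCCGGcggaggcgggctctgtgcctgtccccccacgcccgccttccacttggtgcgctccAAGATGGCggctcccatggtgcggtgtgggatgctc
Mrpl52: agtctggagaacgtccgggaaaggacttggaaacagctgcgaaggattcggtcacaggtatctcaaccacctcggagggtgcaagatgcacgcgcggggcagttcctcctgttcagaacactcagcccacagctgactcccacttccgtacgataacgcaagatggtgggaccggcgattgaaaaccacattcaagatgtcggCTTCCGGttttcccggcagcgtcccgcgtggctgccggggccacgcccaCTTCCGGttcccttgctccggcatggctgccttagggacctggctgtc
Mrps36: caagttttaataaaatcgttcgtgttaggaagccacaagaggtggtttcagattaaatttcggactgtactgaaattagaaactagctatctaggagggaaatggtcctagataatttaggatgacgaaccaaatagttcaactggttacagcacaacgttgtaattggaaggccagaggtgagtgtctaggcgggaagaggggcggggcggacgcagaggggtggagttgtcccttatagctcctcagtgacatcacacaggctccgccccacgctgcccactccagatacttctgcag

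The strings, which can overlap, were searched on both strands. They were a long NRF1-type string (in capitals under Mrpl12) and the short GCATGCG, which both resemble sites of the transcription factor NRF1, CCGGAAG, which resembles sites of ETS factors such as GABP, and AAGATGGC, which resembles sites of YY1. These factors are known for regulating nuclear genes of mitochondria. Of the 78 members 69 had a promoter in the table, and 44 of these (63.8%) held at least 1 of the letter strings, against 18.4% of all 27025 genes with a promoter there. CCGGAAG was in 37.7% of member promoters and 9.93% of all, and the long NRF1-type string in 18.8% and 5.19%. GCATGCG was in 11.6% and 4.01%, and AAGATGGC in 17.4% and 3.19%. Promoters of cytosolic ribosomal protein genes held at least 1 string in 63.2% of cases, close to the members, and those of respiratory chain and ATP synthase genes in 55.9%. Among members the median log2 fold change at 14 days was -0.47 for the 44 with a string and -0.56 for the 25 without. Of the printed promoters, Mrpl12 held the long NRF1-type string, Mrpl34 and Mrpl52 the ETS-type string, Mrps27 an ETS-type and a YY1-type string, and Mrps36 none of the 4 in this window. Promoters of Mrpl50 and Mrpl47, also among the 6 members lowest at 14 days, are not shown and held none of the 4 either.

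After 14 days of Ang II 77 of 78 members had a negative log2 fold change against sham, beside 54.8% of all genes. By edgeR 0 of them passed after adjustment, as did 0% of all genes. At an unadjusted edgeR p under 0.05, 40 members (51.3%) were lower, beside 10.4% of all genes. DESeq2 called 11 members, all lower, beside 4.2% of all genes called lower. The members summed to 4740, 3910 and 5180 CPM in sham replicates 1 to 3, to 3000, 3220 and 3480 CPM at 14 days, and to 4960, 3180 and 4390 CPM at 28 days. All 3 libraries of 14 days lay below all 3 of sham, and at 28 days 2 libraries lay within the range of sham while replicate 2 lay among those of 14 days. As a share of all reads the members made up 0.403% to 0.472% in sham, 0.300% to 0.359% at 14 days and 0.370% to 0.471% at 28 days. In bulk tissue, fewer cells of a mitochondria-rich type and less RNA per cell cannot be told apart.

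**Figure D1:**
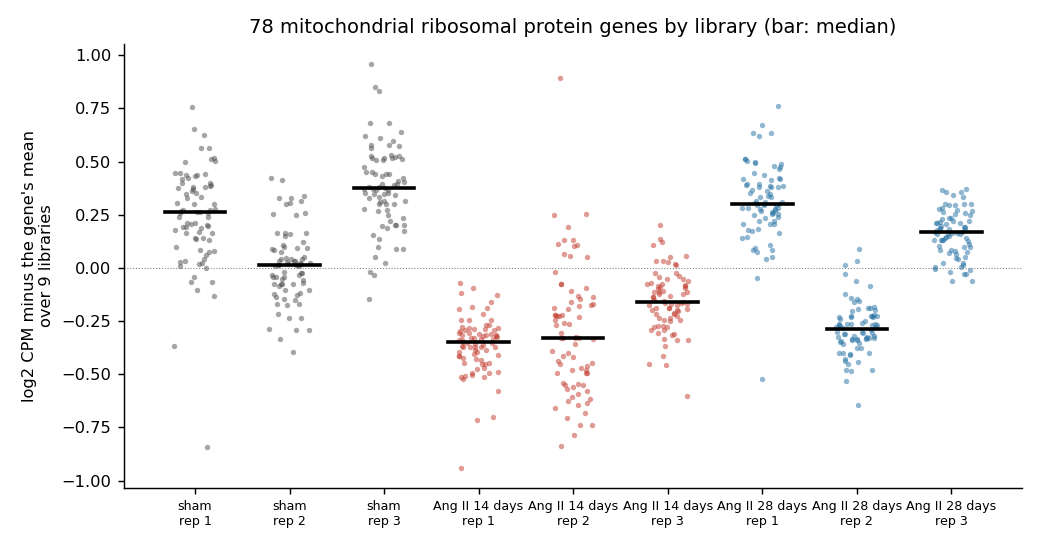
Level of each of the 78 members (points) in each library as log2 CPM minus the gene's mean over 9 libraries, with the median as a bar. The 14-day libraries and 28-day replicate 2 lie below 0 in the median, and the other 5 libraries lie above it.

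Aortas after 14 days were compared with sham to ask how transcripts differ during aneurysm formation. The median log2 fold change of the members was -0.48, which is 1.40-fold lower, beside -0.07 for all 14751 genes tested. The spread among members was narrow, with quartiles at -0.66 and -0.39 and 24 members more than 1.5-fold lower. The groups did not overlap, all lower at 14 days, for 49 of 78 members, beside 13.5% of all genes. By edgeR's quasi-likelihood test 40 members were lower at an unadjusted p under 0.05 and 0 were higher, which is 51.3% of members beside 10.4% of all genes lower and 13.1% higher at that limit.

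After adjustment over all genes edgeR called 0 of 78 members, and it called 0% of all genes. The lowest adjusted p among members was 0.117 by edgeR, for Mrps36. DESeq2 called 11 members, all lower, beside 4.2% of all genes lower and 8.26% higher by that tool. They were Mrpl20, Mrpl34, Mrpl35, Mrpl47, Mrpl50, Mrpl51, Mrpl53, Mrpl55, Mrps6, Mrps23 and Mrps36. The count of 40 rested on single libraries: it was 9 without sham replicate 3, 15 without 14-day replicate 2, 19 without 14-day replicate 1 and 23 without 28-day replicate 3, a library of neither group that enters the shared fit. Counts over all genes in the same refits are not set beside these, so whether the change was particular to the members was not tested. The direction did not rest on a single library, since 75 to 78 members had a negative log2 fold change when any library was left out.

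**Figure D2:**
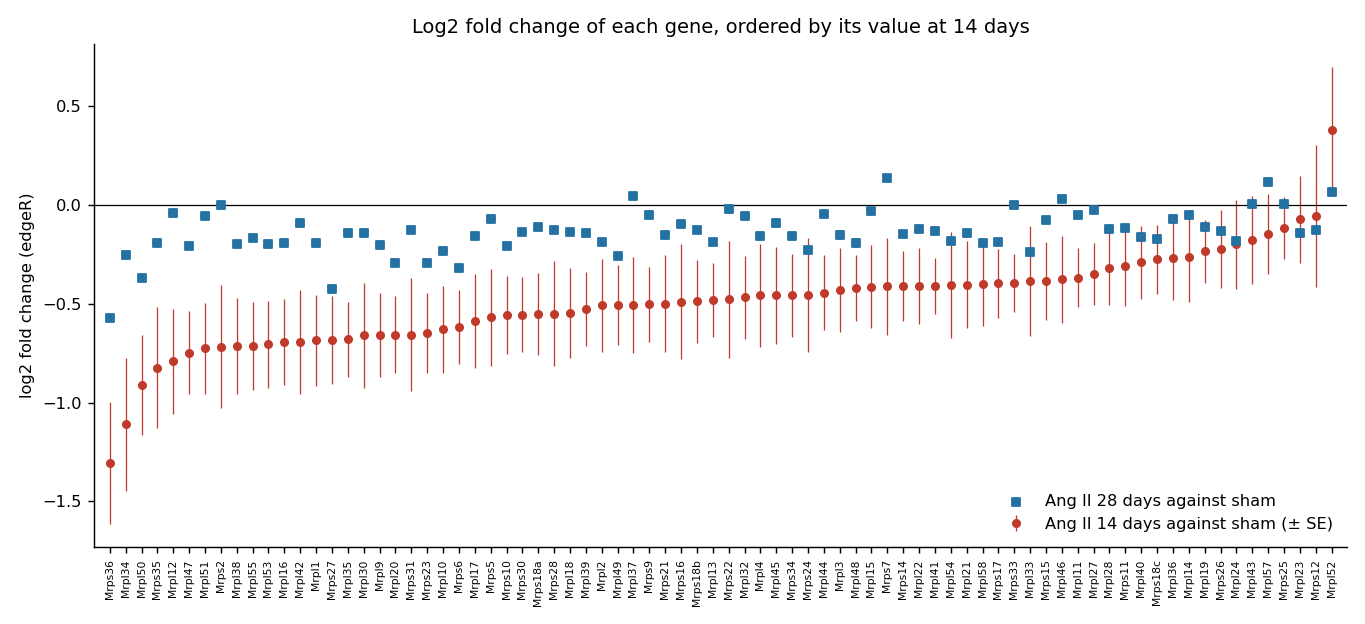
Log2 fold change against sham of the 78 members at 14 days (circles, with SE as bars) and 28 days (squares), ordered by the value at 14 days. Values at 14 days run from -1.30 for Mrps36 to 0.38 for Mrpl52, and values at 28 days lie nearer to 0 in most genes.

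Genes named Mrpl and genes named Mrps had similar values. These are classes by name, since Mrps18a, Mrps30 and Mrps36 are not placed in the small subunit, as described below. The 49 Mrpl genes had a median log2 fold change of -0.46 at 14 days, and the 29 Mrps genes -0.49. At an unadjusted edgeR p under 0.05, 25 Mrpl genes (51.0%) and 15 Mrps genes (51.7%) were lower, beside 10.4% of all genes. The ratio of summed Mrpl to summed Mrps CPM was between 1.82 and 1.91 in all 9 libraries. Members whose number, up to 36 for Mrpl and 21 for Mrps, is that of the bacterial ribosomal protein families had a median of -0.48 (44 genes), and the 34 with later numbers, most of them specific to mitochondria, had -0.49.

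The stalk of the large subunit, where translation factors bind, is formed by products such as those of Mrpl10, Mrpl11 and Mrpl12. Mrpl12 (Entrez 56282, chromosome 11, 120484637 to 120488754) had 165, 109 and 153 CPM in sham, 70.8, 84.6 and 91.0 CPM at 14 days, then 179, 95.3 and 140 CPM at 28 days. The 14-day libraries all lay below sham, and the 28-day libraries spanned the sham range. The log2 fold change of Mrpl12 at 14 days was -0.79 ± 0.26 (SE), with an edgeR adjusted p of 0.143. Of 5 stalk genes 4 (80%) were lower at an unadjusted p under 0.05, beside 51.3% of all members and 10.4% of all genes. The median of the stalk genes was -0.63, and differences between sites were not tested.

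Genes around the exit tunnel and the central protuberance of the large subunit had similar values. Of 6 exit tunnel genes 2 (33.3%) were lower at an unadjusted p under 0.05, with a median of -0.43. Of 6 central protuberance genes 3 (50%) were, with a median of -0.41. The shares were 51.3% for all members and 10.4% for all genes. Mrpl47 (Entrez 74600, chromosome 3, 32727497 to 32736755) had 21.4, 17.7 and 24.0 CPM in sham, 13.3, 10.4 and 13.8 CPM at 14 days, then 19.9, 14.8 and 20.0 CPM at 28 days, so the 14-day libraries lay below both other groups. The DESeq2 adjusted p of Mrpl47 at 14 days was 0.0181 and its log2 fold change by edgeR was -0.75 ± 0.21. Mrpl23, of the same site, had a log2 fold change of -0.07 ± 0.22 with overlapping groups.

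Mrpl34 (Entrez 94065, chromosome 8, 71464926 to 71465753), a short protein of the large subunit core, had 112, 80.7 and 143 CPM in sham, 41.3, 56.3 and 57.9 CPM at 14 days, then 134, 58.8 and 88.8 CPM at 28 days. All 14-day libraries lay below all libraries of sham and of 28 days. Its log2 fold change at 14 days was -1.11 ± 0.33, with a DESeq2 adjusted p of 0.0282 and an edgeR adjusted p of 0.129. Per kilobase of annotated exon Mrpl34 also had the highest level of the members, 141 CPM per kb as the mean of 9 libraries, beside a median of 21.1 and the lowest value of 3.91 for Mrpl47.

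Mrpl50 (Entrez 28028, chromosome 4, 49512597 to 49521083), a protein added in mitochondria, had 53.6, 55.9 and 83.7 CPM in sham, 36.4, 27.3 and 39.0 CPM at 14 days, then 58.5, 37.4 and 53.4 CPM at 28 days. The 14-day libraries lay below sham, and 28-day replicate 2 lay between the 14-day values. Its log2 fold change at 14 days was -0.91 ± 0.25, with a DESeq2 adjusted p of 0.0199.

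Mrpl3, Mrpl44 and Mrpl15 also belong to the large subunit, and Mrpl3 and Mrpl44 are mutated in human mitochondrial cardiomyopathy. Their log2 fold changes at 14 days were -0.43 ± 0.21, -0.44 ± 0.19 and -0.41 ± 0.21. In each of these 3 genes the 14-day libraries lay below all sham libraries, while their 28-day means of 49.1, 27.6 and 54.6 CPM lay within 1 SD of sham at 54.7 ± 11.1, 28.6 ± 4.15 and 55.9 ± 10.6 CPM (n = 3). Without sham replicate 3 the values at 14 days were -0.20, -0.27 and -0.20.

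Among genes named Mrps, Mrps36 (Entrez 66128, chromosome 13, 100735940 to 100744659) had the lowest value of the 78 at both times. Its protein was named as a ribosomal protein and is now known as a subunit that holds the 2-oxoglutarate dehydrogenase complex of the citric acid cycle together. Mrps36 had 119, 78.9 and 137 CPM in sham, 42.9, 46.3 and 46.4 CPM at 14 days, then 97.2, 45.1 and 82.6 CPM at 28 days. The 3 libraries of 14 days were nearly level and below sham, and 28-day replicate 2 stood at their height.

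The log2 fold change of Mrps36 was -1.30 ± 0.31 at 14 days, with a DESeq2 adjusted p of 0.00315, and -0.58 ± 0.30 at 28 days. The genes of the 2-oxoglutarate dehydrogenase complex, Ogdh, Dlst and Dld, had -1.37 ± 0.42, -1.37 ± 0.39 and -1.43 ± 0.38 at 14 days. RefSeq lists 6 pseudogenes with member names, 3 of them of Mrps36 and 1 each of Mrpl23, Mrpl27 and Mrpl48, so reads of these genes could be shared with copies. The gene bodies of 25 of the 78 members overlap another RefSeq gene, among them those of Mrps6, Mrps7, Mrps25, Mrps27, Mrpl37, Mrpl49 and Mrpl57, and whether counting used strand is not given in the sources used here.

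**Figure D3:**
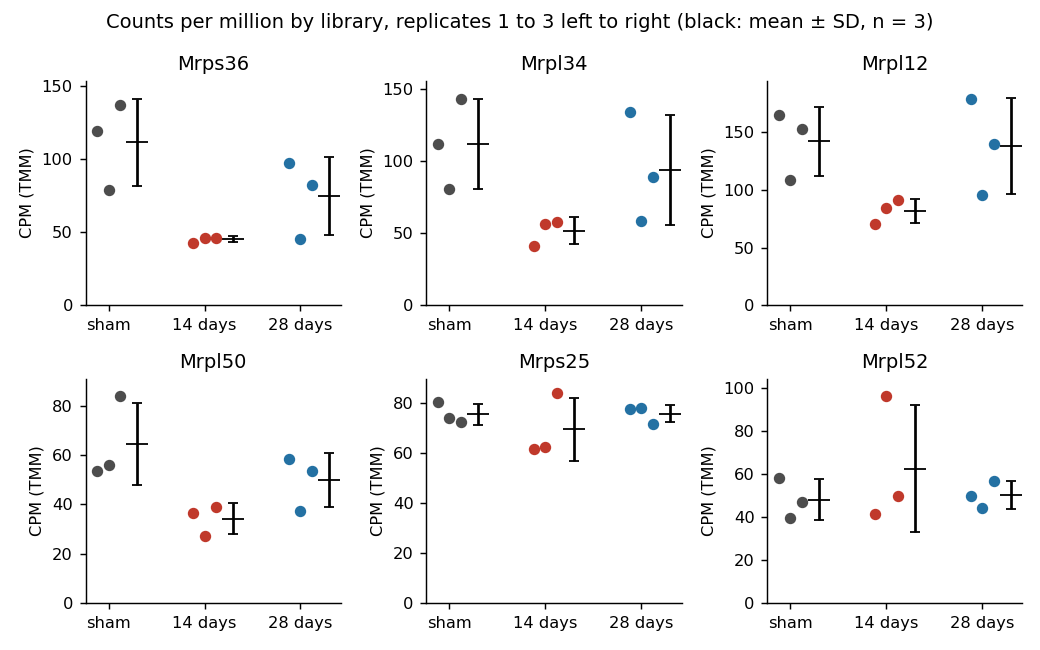
CPM of 6 members in each library (points, replicates 1 to 3 from left to right) with mean and SD (n = 3) as bars. Mrps36, Mrpl34, Mrpl12 and Mrpl50 are lower in every 14-day library than in every sham library, whereas Mrps25 and Mrpl52 overlap.

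The head of the small subunit, where messenger RNA enters, had 6 of 8 genes (75%) lower at an unadjusted p under 0.05. The shares were 51.3% for all members and 10.4% for all genes, and the median of the head genes was -0.48. Mrps35 (Entrez 232536, chromosome 6, 147042728 to 147070906), one of the head genes, had 52.5, 34.3 and 56.7 CPM in sham, 24.7, 20.6 and 35.8 CPM at 14 days, then 51.1, 28.9 and 45.2 CPM at 28 days. Here the groups overlapped by 1 library, since 14-day replicate 3 lay above sham replicate 2, and the log2 fold change was -0.82 ± 0.31. Mrps24 had -0.46 ± 0.29 and Mrps28 -0.55 ± 0.26, with overlapping groups in both, and Mrps24 was at -0.24 without sham replicate 1.

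Mrps22, Mrps16 and Mrps34, mutated in human mitochondrial disease, had log2 fold changes of -0.48 ± 0.30, -0.49 ± 0.29 and -0.46 ± 0.21 at 14 days. For these 3 genes the groups overlapped and the edgeR unadjusted p was 0.144, 0.132 and 0.0600. Without sham replicate 3 Mrps22 was at -0.24 and Mrps16 at -0.31. The 3 paralogs Mrps18a, Mrps18b and Mrps18c, of which Mrps18a sits in the large subunit despite its name, had -0.55 ± 0.21, -0.49 ± 0.21 and -0.28 ± 0.18, the last at -0.15 without sham replicate 1. Mrps18a was lower in every 14-day library than in any sham library, with 76.9, 57.3 and 71.8 CPM in sham and 41.1, 54.1 and 45.3 CPM at 14 days. Mrps30, another protein of the large subunit in spite of its name, had -0.56 ± 0.19 with groups that did not overlap.

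Members at the upper end did not follow the others. Mrpl52 (Entrez 68836, chromosome 14, 54426909 to 54429750) had 58.1, 39.3 and 46.7 CPM in sham, 41.3, 96.1 and 49.8 CPM at 14 days, then 49.9, 44.0 and 56.6 CPM at 28 days. Its one high value was in 14-day replicate 2, the library with the highest macrophage marker sum, and the part of those cells in it was not tested. The log2 fold change of Mrpl52 was 0.38 ± 0.32 at 14 days and -0.05 without that library.

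Mrps12 (Entrez 24030, chromosome 7, 28739641 to 28741821), whose product takes part in decoding, had 17.5, 41.7 and 42.5 CPM in sham, 28.0, 37.3 and 32.4 CPM at 14 days, then 21.8, 31.6 and 39.6 CPM at 28 days. Sham replicate 1 was the lowest and the groups overlapped, and the log2 fold change was -0.06 ± 0.36. Mrps25 had -0.12 ± 0.16 at 14 days, with 80.4, 74.0 and 72.4 CPM in sham and 61.9, 62.7 and 84.2 CPM at 14 days. Against the mean of the other members over the 9 libraries, log2 CPM of 59 members had a Pearson correlation above 0.8, with a median of 0.91, while Mrps12 had -0.19 and Mrpl52 -0.12, as a description of libraries that share their scaling.

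By CPM the most abundant Mrpl genes were Mrpl12, Mrpl42, Mrpl30 and Mrpl4, and the most abundant Mrps genes Mrps21, Mrps36, Mrps15 and Mrps25. Mrpl42 was at 137 ± 23.5 CPM in sham and 84.5 ± 7.29 CPM at 14 days (SD, n = 3), and Mrpl30 at 136 ± 28.4 and 86.3 ± 9.69 CPM. Mrps21, a small protein of the small subunit, was at 108 ± 21.5 and 76.5 ± 9.94 CPM, and Mrps15 at 81.9 ± 12 and 62.7 ± 3.73 CPM. Mrpl4 was at 126 ± 28.9 and 91.8 ± 8.78 CPM with overlapping groups.

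For 28 days against sham, which addresses the later stage, the members' median log2 fold change was -0.14 (1.10-fold lower) beside -0.08 for all genes. By edgeR 0 members passed after adjustment (0% of all genes), 0 were lower and 0 higher at an unadjusted p under 0.05 (5.88% and 7.98% of all genes), and DESeq2 called 0 (2.66% of all genes lower and 4.02% higher). A negative value was seen for 71 of 78 members and 59.2% of all genes. The 28-day libraries lay wholly below sham in 1 member, Mrpl49, named after its values were seen, beside 9.47% of all genes. The median depended on single libraries: without 28-day replicate 2 it was 0.0093 and 35 members were negative, and without sham replicate 3 it was -0.0019 and 40 members were negative. It was -0.23 without sham replicate 2 and -0.27 without 28-day replicate 1.

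The lowest members at 28 days after Mrps36 were Mrps27 at -0.43 ± 0.22, Mrpl50 at -0.37 ± 0.25, Mrps6 at -0.32 ± 0.19, Mrpl20 at -0.30 ± 0.19 and Mrps23 at -0.30 ± 0.20. Mrps27 (Entrez 218506, chromosome 13, 99344767 to 99415562), a protein of the small subunit added in mitochondria, had 49.7, 46.0 and 65.9 CPM in sham, 33.3, 29.7 and 37.5 CPM at 14 days, then 43.9, 29.5 and 46.8 CPM at 28 days. Here 28-day replicate 3 overlapped sham and replicate 2 stood at the lowest level of 14 days. Leaving out 1 library at a time gave Mrps27 values from -0.53 to -0.21, Mrpl50 from -0.51 to -0.09, Mrps6 from -0.43 to -0.21, Mrpl20 from -0.45 to -0.13, Mrps23 from -0.45 to -0.13 and Mrps36 from -0.81 to -0.31. The value nearest to 0 came without sham replicate 3 for Mrps27, Mrpl50, Mrps6 and Mrps23, and without 28-day replicate 2 for Mrpl20 and Mrps36. The highest were Mrps7 at 0.13 ± 0.24, Mrpl57 at 0.11 ± 0.20, Mrpl52 at 0.06 ± 0.32 and Mrpl37 at 0.04 ± 0.24. Mrps7, a head protein, had 60.6, 54.9 and 78.4 CPM in sham and 92.7, 49.3 and 71.0 CPM at 28 days, so 1 library was above and 1 below the sham range.

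Between 28 and 14 days of Ang II the log2 fold change was positive in 75 members and negative in 3 (44.9% and 55.1% of all genes), with a median log2 fold change of 0.36 (1.28-fold) beside -0.05 for all genes. By edgeR 0 members passed after adjustment (0% of all genes) and DESeq2 called 0 (0.607% of all genes higher). At an unadjusted edgeR p under 0.05, 10 members were higher and 0 lower, beside 3.86% and 2.26% of all genes. The 28-day libraries lay wholly above those of 14 days in 7 members, beside 4.35% of all genes, among them Mrpl34 and Mrpl47 and also Mrpl12, at 0.75 ± 0.26. The count of 10 was 44 without 28-day replicate 2, 2 and 3 without 14-day replicates 1 and 2, and 0 without 28-day replicate 1 or 3. Counts over all genes in these refits are not set beside those of the members here. The median of the members was 0.22 without 28-day replicate 1. In 69 members the mean of 28 days lay between those of 14 days and sham.

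Of the 9 libraries, 14-day replicate 1 was lowest for 32 members, 14-day replicate 2 for 29 and 28-day replicate 2 for 13. Sham replicate 3 was highest for 39 members, sham replicate 1 for 19 and 28-day replicate 1 for 14. Within 14 days replicate 1 was the lowest for 40 members, replicate 2 for 35 and replicate 3 for 3. Within 28 days replicate 2 was the lowest for 76 of 78 members, and within sham replicate 2 was the lowest for 60. Both of these libraries were among the 3 with the highest nerve markers. Each also had the lowest mean log2 CPM of respiratory chain and ATP synthase genes in its group, 7.65 in sham and 7.31 at 28 days. The part of any of these differences was not tested.

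Subunits of the mitochondrial ribosome with other names had values like those of the members. The 5 genes Dap3, Ptcd3, Chchd1, Aurkaip1 and Gadd45gip1 had a median of -0.51 at 14 days and -0.25 at 28 days. Dap3, a GTP-binding protein of the small subunit, had -0.35 ± 0.16 at 14 days, Chchd1 -0.51 ± 0.21, Aurkaip1 -0.49 ± 0.22 and Gadd45gip1 -0.54 ± 0.26. Ptcd3, an RNA-binding protein of the small subunit, had 60.8, 70.2 and 96.2 CPM in sham and 43.0, 28.7 and 51.7 CPM at 14 days, with no overlap, and -0.88 ± 0.28 (DESeq2 adjusted p = 0.0407).

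Lists of genes that serve this ribosome had medians from -0.34 to -0.66 at 14 days. Of 13 translation factors 7 were lower and 0 higher at an unadjusted p under 0.05, with a median of -0.56, a share of 53.8% beside 10.4% of all genes. Of 23 genes of ribosome assembly and ribosomal RNA modification 4 were lower (17.4%, median -0.38), and of 15 genes of mitochondrial transcription and RNA maintenance 3 (20%, median -0.34), shares not far from that of all genes. Of 20 mitochondrial tRNA synthetases 7 were lower (35%, median -0.41), and 0 were higher in these 3 lists. Lrpprc, which stabilises mitochondrial messages, had -0.92 ± 0.27 (DESeq2 adjusted p = 0.0290), whereas Tfam, which packages and transcribes mitochondrial DNA, had -0.17 ± 0.22 with overlapping groups. Of 18 genes of import and matrix housekeeping 12 were lower and 0 higher, with a median of -0.66.

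Genes of oxidative metabolism had lower medians than the mitochondrial ribosome. The 84 tested nuclear genes of the respiratory chain and ATP synthase had a median log2 fold change of -1.12 at 14 days. Of these, 76 were lower and 1 higher at an unadjusted p under 0.05, and 68 were lower by DESeq2. Shares of all genes were 10.4% lower and 13.1% higher at that limit, and 4.2% lower by DESeq2. The 17 citric acid cycle genes had a median of -1.35, with all 17 lower at that limit. The mean log2 CPM of respiratory genes exceeded that of the members by 2.44, 2.12 and 2.39 in sham, by 1.87, 1.68 and 1.80 at 14 days and by 2.43, 2.07 and 2.22 at 28 days. This difference of levels was smaller in every 14-day library than in any library of the other groups. Against either group alone, an exact permutation test of 3 against 3 libraries cannot give a two-sided p under 0.1. Cytosolic ribosomal proteins, the counterpart outside mitochondria, had the other sign at 14 days, with a median of 0.65 and 33 of 77 higher and 0 lower at an unadjusted p under 0.05.

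**Figure D4:**
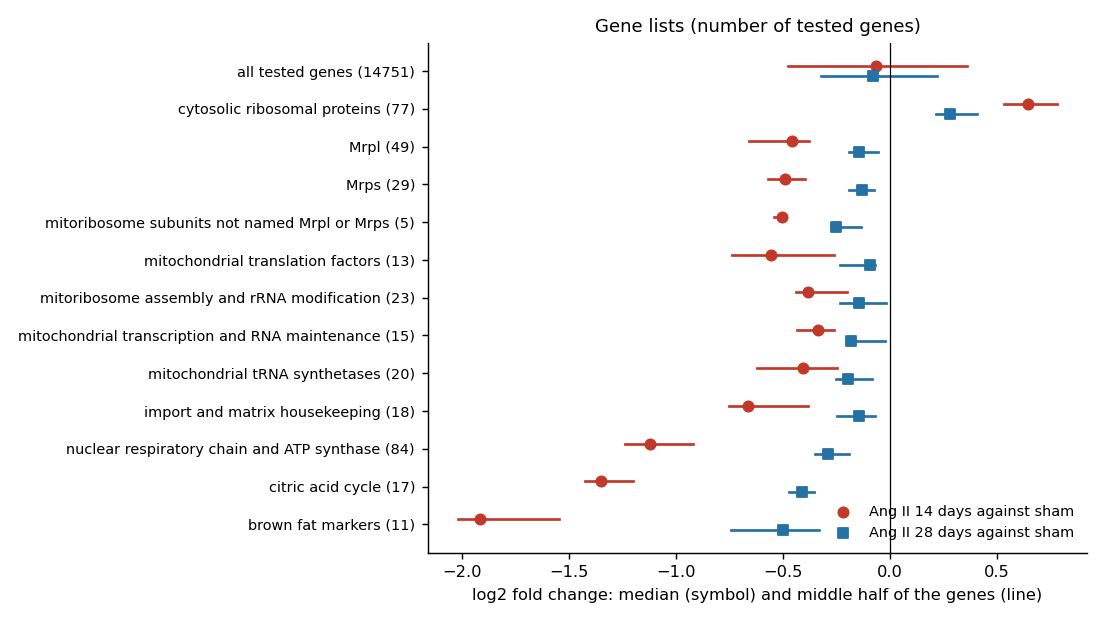
Median log2 fold change against sham (symbols) and the middle 50% of genes (lines) for the members and other lists, at 14 days (circles) and 28 days (squares), with the number of tested genes in brackets. At 14 days the members lie at -0.46 and -0.49, the respiratory list at -1.12 and the cytosolic ribosomal proteins at 0.65.

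Regulators of mitochondrial biogenesis were mixed, with 4 of 10 lower and 3 higher at 14 days at an unadjusted p under 0.05 (10.4% and 13.1% of all genes). Ppargc1a, a coactivator of mitochondrial genes, had 20.4, 25.5 and 38.2 CPM in sham, 25.1, 4.83 and 11.5 CPM at 14 days, then 28.2, 12.4 and 84 CPM at 28 days, with overlapping groups and -1.02 ± 0.77 at 14 days. The 5 genes outside the members whose log2 CPM was most like the members' mean over the 9 libraries were Atp5d and Esrra (Pearson r = 0.992 each), Atp5j2 and Ndufb7 (0.989 each) and Alkbh7 (0.987). Esrra, a nuclear receptor that controls genes of oxidative metabolism, had 92.6, 65.7 and 110 CPM in sham, 40.4, 46.6 and 59.0 CPM at 14 days, then 96.5, 51.3 and 83.1 CPM at 28 days.

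Markers of brown fat, a tissue very rich in mitochondria, were lower in the same libraries. The 11 markers, 0 of them at a count of 0 in any library, summed to 5250 to 11000 CPM in sham, 1250 to 2970 at 14 days and 2410 to 6400 at 28 days. At 14 days 9 of the 11 markers were lower at an unadjusted p under 0.05 (10.4% of all genes), with a median of -1.92. Among them Ucp1, the uncoupling protein, had -1.84 ± 0.60, and Cox7a1 and Cox8b are also in the respiratory list. The mean log2 CPM of the markers was 7.47 to 8.54 in sham and 5.41 to 6.59 at 14 days, with no overlap, so the time of Ang II and the marker level cannot be told apart in a fit that holds both. Such a fit was added after seeing that the markers moved with the members, and Cox7a1, Cox8b and Ppargc1a among them are themselves mitochondrial or regulate mitochondrial genes. It gave the members a 14-day median of 0.02, with 37 of 78 negative and 0 lower at an unadjusted p under 0.05. All 14751 genes had a median of 0.02 in it, with 7087 negative and 156 lower at that limit, and nothing is read from it about the members.

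**Figure D5:**
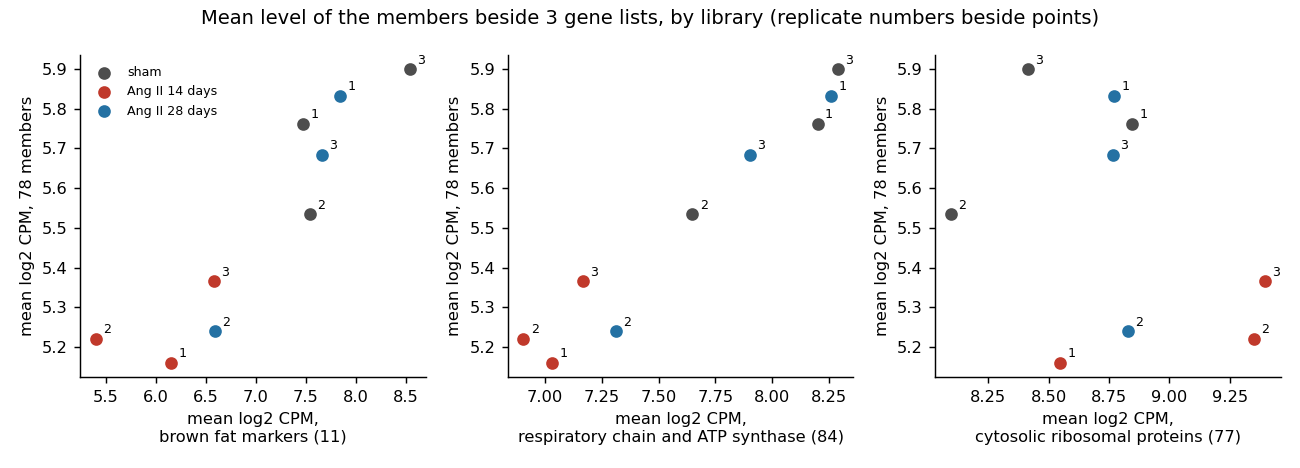
Mean log2 CPM of the 78 members in each library (vertical axes) against that of brown fat markers, respiratory chain genes and cytosolic ribosomal proteins (horizontal axes). The 14-day libraries and 28-day replicate 2 have the lowest member levels, 5.16 to 5.37, and the lowest brown fat and respiratory levels.

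General adipocyte markers summed to 14800 to 21400 CPM in sham, 5530 to 17300 at 14 days and 12700 to 23900 at 28 days, with 0 of 10 lower or higher at 14 days at an unadjusted p under 0.05. Macrophage markers, in contrast, were higher at 14 days for 10 of 10 genes at that limit (13.1% of all genes), lymphocyte markers for 8 of 8 and markers of dividing cells for 8 of 8. Fibroblast markers summed to 2690 to 4830 CPM in sham, 4960 to 15700 at 14 days and 4260 to 8480 at 28 days, with 4 of 7 higher at 14 days at that limit. Endothelial markers summed to 734 to 1030, 680 to 1670 and 936 to 1620 CPM, with 1 of 7 higher. The 3 of 6 adrenal cortex markers that passed the filter on low counts summed to 5.52 to 10.2 CPM over all libraries. The part of these cells in the members' values was not tested. A fit without the 3 libraries highest in nerve markers gave the members a 14-day median of -0.51. That setting keeps 28-day replicate 3, at 1760 CPM of these markers. Without the 2 libraries high in skeletal muscle markers the median was -0.48. Both of these are 28-day libraries, which enter the 14-day comparison only through the shared fit. Nothing is read from that value about skeletal muscle.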

How the data were processed

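RNA of 9 aortic samples, 3 each of sham, 14 days and 28 days of Ang II, was isolated with TRIzol, and an MGIEasy mRNA kit gave the libraries, per the labels' protocols. The authors deposited 1 file of expected counts per gene for each library, and 9.77% to 11.0% of genes had a count that was not whole, as RSEM gives. The submitters' processing notes list RSEM 1.3.1, Bowtie2 2.4.5 and HISAT2 2.2.1 and the build GRCm38.p6, without their roles. Of 18830 Entrez IDs 18775 were matched to a RefSeq symbol on GRCm38.p6, and 55 were not.

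Expected counts were rounded, and edgeR 4.0.16 (R 4.3.3) tested 14751 genes that passed filterByExpr, with TMM factors, a robust quasi-likelihood fit of all 9 libraries with 1 mean per group and Benjamini-Hochberg adjustment over all genes (threshold 0.05). The biological coefficient of variation was 51.3%. The SE of a log2 fold change is its size divided by the root of the quasi-likelihood F. Log2 CPM used a prior count of 2, and CPM per kb used GENCODE exon lengths. DESeq2 1.42.0, RLE factors, other filters, fits of 2 groups, the replicate number as a block and each library left out were alternatives, and 3 further fits were added after seeing the data. The scripts were tested on simulated counts.

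Members and lists, and the rule for naming genes, were chosen with earlier results of these data known. The rule named, against sham, the 6 members with the lowest and the 4 with the highest log2 fold change at each time, the 4 most abundant Mrpl and Mrps genes, 14 fixed members and 9 fixed other genes. Members outside it were named for their DESeq2 call, their site or their neighbouring genes, after their values were seen. Subunit sites were assigned from general knowledge. Mtrfr and Trmt61b of the lists were not matched by symbol. Numbers of the labels paired no libraries: deviations of same-numbered libraries correlated between -0.553 and 0.645, and 3 of 9 pairs were above 0.1. Protein sequences were not used here.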

Additional observations from a re-analysis of the deposited data

How the results depend on the processing

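Of the planned settings, DESeq2 changed the number of members called at 14 days against sham from 0 to 11. The calls by edgeR were 0 in each of the 3 comparisons under RLE factors, other filters, fits of 2 groups, the replicate block and each library left out. The libraries do not pair by number, and the replicate block gave medians of -0.46, -0.15 and 0.33 for 14 days against sham, 28 days against sham and 28 against 14 days, 1 member lower at an unadjusted p under 0.05 at 28 days, 22 higher between 28 and 14 days, and 0.039 for Mrps12 at 14 days.

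With 1 library left out the medians ran from -0.59 to -0.35, from -0.27 to 0.0093 and from 0.22 to 0.52 in these comparisons. Members at an unadjusted p under 0.05 ran from 9 to 49 lower, from 0 to 1 lower and from 0 to 44 higher, and members with a negative log2 fold change from 75 to 78, from 35 to 76 and from 0 to 5. At 14 days Mrpl23 ran from -0.23 to 0.10, Mrps12 from -0.37 to 0.19 and Mrpl52 from -0.054 to 0.60, and at 28 days Mrpl37 from -0.11 to 0.30, Mrpl52 from -0.064 to 0.22, Mrpl57 from -0.028 to 0.24 and Mrps7 from -0.11 to 0.35. The cause was not tested, beyond each such fit having fewer libraries. Counts over all genes are not set beside the members' counts for these fits or for the replicate block.

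Of the fits added later, the one with the brown fat covariate gave medians of 0.018 at 14 days and -0.038 for 28 against 14 days. Values of the covariate in sham and at 14 days do not overlap. Group and covariate therefore cannot be told apart, and nothing about the members is read from this fit. It left 0 members lower at 14 days and 0 higher between 28 and 14 days at an unadjusted p under 0.05, with 37 and 48 negative, beside 156 lower and 89 higher of all 14751 genes. Without the 3 libraries highest in nerve markers the fit gave 1 member lower at 28 days, and 18 higher and 5 negative between 28 and 14 days. The matching counts over all genes are not given here, so nothing particular to the members is read from these. Without the 2 libraries high in skeletal muscle markers 28 days is 1 library, assumed to vary like the other groups, and 6 members were higher between 28 and 14 days. The median SE at 14 days was 0.219 for members and 0.318 for all genes, with 3 libraries per group and at least 145 reads per member and library.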
